A study of Mus musculus with 4 samples.

Results

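Transcripts of 10 transcription factors of epidermal differentiation were measured in mouse dorsal skin treated with NEDD8i or with DMSO. The factors were Klf4, Klf5, Grhl1, Grhl3, Ovol1, Zfp750, Cebpa, Cebpb, Prdm1 and Gata3, taken by gene name from a table of 56953 genes, and all 10 were counted and passed the filter on low counts. The skin came from wild-type C57BL/6J mice that received a topical treatment on the back for 3 days, after which full-thickness pieces were taken. Treated mice were given NEDD8i at 10 µM, of which only the label is known here. The label names NEDD8, a small protein that is attached to other proteins as ubiquitin is. Control mice were given DMSO. Each group had 2 libraries, and the ages of the mice are not given in the sources used here. The labels do not say whether the replicates came from separate mice, so p-values measure the spread between these libraries, which may be technical.

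In the epidermis, keratinocytes leave the basal layer, stop dividing and build the spinous, granular and cornified layers in order. Each step is run by transcription factors that act on the genes of keratins, desmosomes, transglutaminases, barrier lipids and the cornified envelope. Klf4, the grainyhead-like factors and Zfp750 are known for the last steps, in which the barrier to water loss forms, and mice without Klf4 or Grhl3 are born with a leaking barrier. Several of the same factors also work in other skin cells, such as Gata3 in the inner root sheath of the hair and in T cells, Prdm1 in sebaceous glands and lymphocytes, Cebpa in sebocytes and fat cells, and Cebpb in macrophages.

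The libraries held 5639791 to 8856572 counts, of which 52.6% to 61.7% fell on 3 ribosomal RNA genes. The 10 factors together took 0.600% and 0.642% of the counts outside ribosomal RNA in the DMSO libraries (exact 95% binomial intervals 0.591 to 0.609 and 0.632 to 0.653), and 0.600% and 0.678% in the NEDD8i libraries (0.592 to 0.608 and 0.669 to 0.687), replicate 1 being given before replicate 2. The binomial intervals cover counting error only. Klf4 alone made up 44.9% and 45.3% of the counts of the 10 factors in DMSO and 49.5% and 51.2% in NEDD8i. Gata3 made up 24.9% and 28.3% in DMSO and 16.2% and 14.9% in NEDD8i, so the sum says little of the other factors. The summed share of the 10 factors outside ribosomal RNA overlapped between the groups. Scaled by TMM, in the CPM defined below, the sums did not overlap. They were 2422 and 2661 CPM in DMSO and 2724 and 2754 CPM in NEDD8i. Keratinocyte keratins were abundant in every library, while 4 endothelial markers held 3, 2, 6 and 14 counts in library order (DMSO replicates 1 and 2, then NEDD8i replicates 1 and 2), with Cdh5 at 0 in all 4. DMSO replicate 1 stood apart by its hair RNA: 11 genes of the hair shaft and inner root sheath summed to 45569 counts there. DMSO replicate 2 held 104 such counts, NEDD8i replicate 1 held 129, and NEDD8i replicate 2 held 3546. Values of the factors are therefore given per library, and fits without a library are given for each factor whose call or direction they alter.

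The comparison of NEDD8i with DMSO asks whether the transcripts of these factors differ after the treatment. At a threshold of 0.05 on Benjamini-Hochberg adjusted p over all genes (quasi-likelihood F test in edgeR), 0 of the 10 factors passed, against 0.782% of the 11388 genes tested (0.667% higher and 0.114% lower). At an unadjusted p under 0.05 there were 3 of the 10, Grhl3, Cebpb and Prdm1, all higher after NEDD8i, where 8.62% of all tested genes were higher and 7.86% lower at that level. DESeq2 called 1 factor higher, Grhl3, where it called 2.17% of its genes higher, and limma-voom called 0 (0.22% of all genes higher). Levels below are in CPM, counts per 1000000 of the library size scaled by TMM. Both NEDD8i libraries lay above both DMSO libraries for 5 factors (Grhl3, Cebpb, Prdm1, Klf4 and Zfp750) and below both for 1 (Gata3), where 25.0% of all tested genes lay above and 22.9% below. The median log2 fold change of the 10 was 0.39, beside -0.0031 over all tested genes, and 8 of the 10 were positive, beside 49.9% of all tested genes. In bulk skin, fewer cells of a type and less RNA per cell cannot be told apart.

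**Figure D1:**
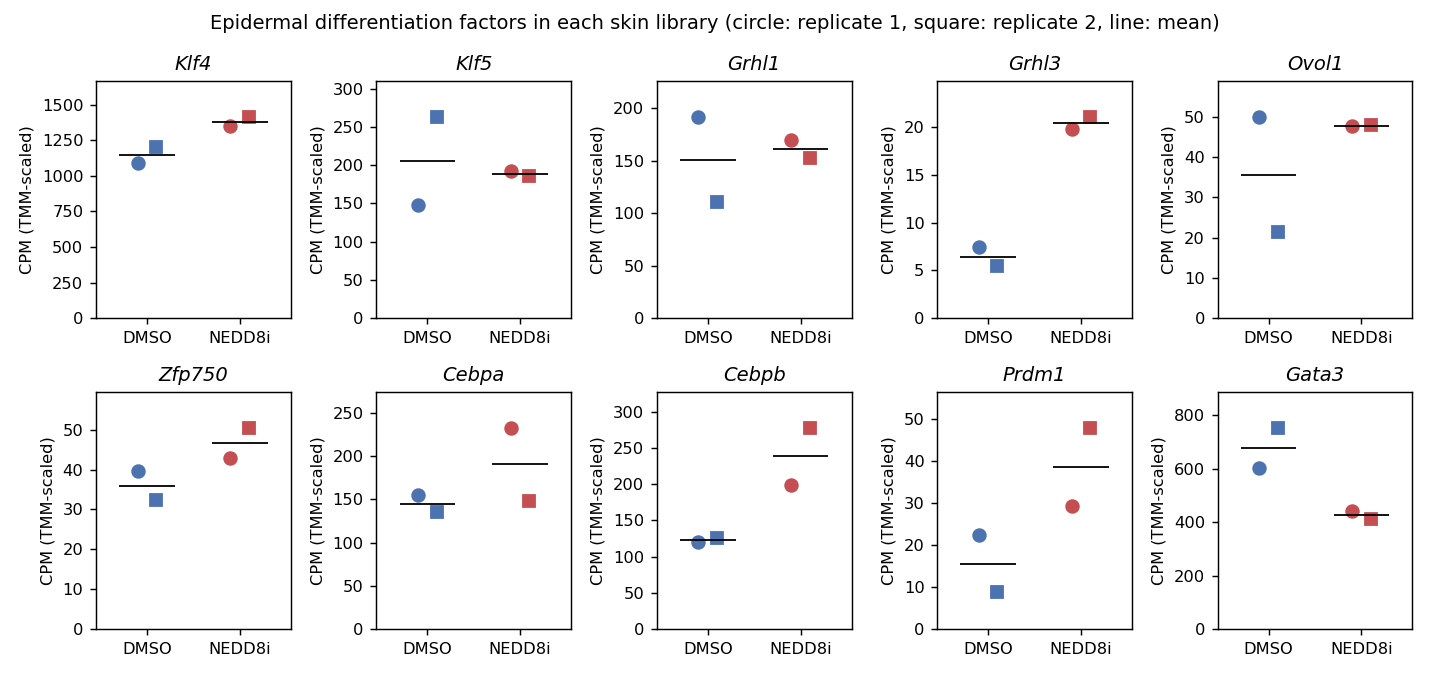
Level of each factor in each library, in CPM on an axis that starts at 0, with circles for replicate 1, squares for replicate 2 and a line at the group mean. Grhl3 lies near 5 to 7 CPM in DMSO and near 20 in NEDD8i, Gata3 is the one factor with both NEDD8i libraries below both DMSO libraries, and Ovol1, Klf5, Grhl1 and Prdm1 are far apart between the DMSO libraries.

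The grainyhead-like factors bind DNA as dimers and drive genes of barrier formation and wound closure. Grhl3 (ENSMUSG00000037188.8, chromosome 4, 135269199 to 135300941 on the minus strand; this and the later gene coordinates are from the deposited table, taken as GRCm39) had 52 and 30 counts in DMSO and 159 and 175 counts in NEDD8i. These were 7.43 and 5.43 CPM in DMSO and 19.7 and 21.02 CPM in NEDD8i. Both NEDD8i libraries were thus clearly above both DMSO libraries, and the lower of them was 2.66 times the higher DMSO library. The mean was 6.43 ± 1.41 CPM in DMSO and 20.4 ± 0.904 CPM in NEDD8i (SD, n = 2 each). The fitted fold was 3.15 with a 95% interval of 1.80 to 5.52 (log2 fold change 1.66 with SE 0.36 and, by edgeR, adjusted p = 0.0732). It ranked 197 by p among all tested genes, ahead of the other factors.

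Whether Grhl3 passed depended on the fit. It passed in the fit without DMSO replicate 1 (log2 fold change 1.89, edgeR adjusted p = 0.00119), where 5.62% of all genes were called higher, and in the fit without DMSO replicate 2 (1.47, edgeR adjusted p = 0.00945), where 5.09% were. In those fits the DMSO group has 1 library, which is assumed to vary like the other group, so they show only how the value depends on a library. The log2 fold changes in fits without NEDD8i replicate 1 or 2 were 1.72 and 1.60, and neither passed (0.343% and 0.353% of all genes called higher). It also passed with no filter on low counts (1.63% of all genes called higher), with the replicate number as a block (1.57%) and with a crossed block (2.18%). With RLE factors (0.597%), without the ribosomal RNA genes (0.571%) and with library sizes that had no TMM factors (0.334%) it did not. Over all 12 alternatives the log2 fold change of Grhl3 stayed between 1.42 and 1.89, with adjusted p from 0.00119 to 0.41.

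Grhl1 (ENSMUSG00000020656.17, chromosome 12, 24622282 to 24667390, plus strand), a regulator of the desmosomal cadherin Dsg1 and of hair anchoring, had 191 and 111 CPM in DMSO and 169.9 and 153 CPM in NEDD8i. The groups overlapped, both NEDD8i libraries lying between the DMSO libraries, and the higher DMSO value was in the library rich in hair RNA. Its fitted fold was 1.07 (95% interval 0.625 to 1.82, edgeR adjusted p = 0.922). Its sign rested on the libraries kept, with a log2 fold change of 0.53 without DMSO replicate 1 and -0.23 without DMSO replicate 2. Grhl2, the third member of the family and not among the 10, had 41.4 and 55.8 CPM in DMSO and 26.3 and 38.1 CPM in NEDD8i, lower in both NEDD8i libraries but not past the threshold (edgeR log2 fold change -0.59, SE 0.32, adjusted p = 0.402). Grhl3 reads made up 3.10% and 3.16% of the reads of Grhl1, Grhl2 and Grhl3 together in DMSO, and 9.14% and 9.93% in NEDD8i, a share that does not depend on how libraries are scaled. The shares of the groups did not overlap, which with 2 libraries against 2 cannot go below an exact two-sided permutation p of 0.333.

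The C/EBP factors act as the spinous layer forms and when basal cells leave the cycle. Cebpb (ENSMUSG00000056501.4, chromosome 2, 167530835 to 167532338, plus strand) had 843 and 694 counts in DMSO and 1602 and 2313 counts in NEDD8i. In CPM these were 120 and 126 in DMSO and 199 and 278 in NEDD8i. The DMSO libraries were nearly equal, and both NEDD8i libraries were above them, replicate 2 more than replicate 1. The fitted fold was 1.94 (95% interval 1.19 to 3.15, log2 fold change 0.95 with SE 0.31 and, by edgeR, adjusted p = 0.18). The adjusted p ran from 0.0499 to 0.849 over 12 alternatives, and the call passed once, without DMSO replicate 1 (log2 fold change 0.91). The log2 fold change was 0.68 without NEDD8i replicate 2 and 1.19 without NEDD8i replicate 1. Markers of macrophages and monocytes, cells that also express Cebpb, summed to 24.4 and 15.8 CPM in DMSO and 39.5 and 26.3 CPM in NEDD8i over 7 genes. All 7 had reads, of which 3 were tested and 0 passed, and their part in the Cebpb values was not tested.

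Cebpa (ENSMUSG00000034957.11, chromosome 7, 34818718 to 34821353, plus strand), which arrests the cycle in differentiating cells, had 155 and 135 CPM in DMSO and 233 and 149 CPM in NEDD8i. The groups overlapped, since NEDD8i replicate 2 lay between the DMSO libraries. A fold of 1.31 was fitted (95% interval 0.787 to 2.20, edgeR adjusted p = 0.61), and the log2 fold change was 0.67 without NEDD8i replicate 2 and 0.05 without NEDD8i replicate 1. The ratio of Cebpb to Cebpa counts was 0.777 and 0.93 in DMSO and 0.854 and 1.87 in NEDD8i, so that NEDD8i replicate 2 alone stood apart. Sebocyte markers, in cells that also use Cebpa, summed to 159 and 151 CPM in DMSO and 162 and 244 CPM in NEDD8i over 7 genes, most of it Scd1. All 7 had positive log2 fold changes and 0 were called, and their part in the Cebpa values was not tested.

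Prdm1 (Blimp1; ENSMUSG00000038151.14, chromosome 10, 44313173 to 44334744, minus strand) is a repressor active in the granular layer and in sebaceous glands. It had 156 and 49 counts in DMSO and 237 and 399 counts in NEDD8i, which were 22.3 and 8.87 CPM against 29.4 and 47.9 CPM. Both NEDD8i libraries were higher, but the DMSO libraries differed by 2.51 times and the NEDD8i libraries by 1.63 times. A fold of 2.47 was fitted (95% interval 1.21 to 5.05, log2 fold change 1.30 with SE 0.46 and, by edgeR, adjusted p = 0.203). Without DMSO replicate 1 the log2 fold change was 2.11, with an edgeR adjusted p of 1.67e-05, and without DMSO replicate 2 it was 0.81, with one of 0.133. Without NEDD8i replicate 2 it was 0.90 and without NEDD8i replicate 1 it was 1.64, neither past the threshold, and adjusted p over the 12 alternatives ran from 1.67e-05 to 0.791. In each group Prdm1 was higher in the library with more hair RNA, and the part of hair RNA in its values was not tested. T cell markers summed to 33.4 and 47.5 CPM in DMSO and 33.9 and 31.4 CPM in NEDD8i over 7 genes, with Trac at 0 in all 4 libraries. Of the sebocyte markers, all 7 had positive log2 fold changes (median 0.81), 5 had both NEDD8i libraries above both DMSO libraries, and 0 were called. Their sum, most of it Scd1, was 159 and 151 CPM in DMSO and 162 and 244 CPM in NEDD8i. It was highest in NEDD8i replicate 2, where Prdm1 was highest too, but nearly level in the other libraries, where Prdm1 was not. The part of either cell type in the Prdm1 values was not tested.

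Ovol1 (ENSMUSG00000024922.3, chromosome 19, 5599164 to 5610674, minus strand) is a zinc finger repressor that holds keratinocytes out of the cycle once they differentiate, and is also active in the hair. It had 349 and 118 counts in DMSO and 384 and 399 counts in NEDD8i, which were 49.9 and 21.4 CPM against 47.7 and 47.9 CPM. The NEDD8i libraries were nearly equal and matched DMSO replicate 1, while DMSO replicate 2 was low, so the groups overlapped. Its fitted fold was 1.34 (95% interval 0.722 to 2.48, edgeR adjusted p = 0.656). The value was set by the DMSO library kept: without DMSO replicate 1 the log2 fold change was 1.15 and passed (edgeR adjusted p = 0.02), and without DMSO replicate 2 it was -0.04 (edgeR adjusted p = 0.964, the highest of the 12 alternatives, the lowest being the 0.02).

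Zfp750 (ENSMUSG00000039238.7, chromosome 11, 121401804 to 121410159, minus strand), the mouse counterpart of human ZNF750, acts beside Klf4 on late differentiation genes. It had 39.6 and 32.2 CPM in DMSO and 43.0 and 50.5 CPM in NEDD8i. Both NEDD8i libraries lay above both DMSO libraries, by 1.09 times at the nearest pair. The fitted fold was 1.30 (95% interval 0.83 to 2.04, edgeR adjusted p = 0.57). Zfp750 lies within the span of Tbcd on the opposite strand, which had 71, 62, 83 and 86 counts in library order, and the sources used here do not say whether reads were counted by strand.

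The Krüppel-like factors bind GC-rich sites and take opposite places in the epidermis, Klf5 in dividing basal cells and Klf4 in the suprabasal layers. Klf4 (ENSMUSG00000003032.9, chromosome 4, 55527143 to 55532466, minus strand) had 7603 and 6655 counts in DMSO and 10861 and 11745 counts in NEDD8i. In CPM these were 1087 and 1205 in DMSO and 1349 and 1411 in NEDD8i. The groups did not overlap but lay close, the nearest libraries differing by 1.12 times. The fitted fold was 1.20 (95% interval 0.732 to 1.98, log2 fold change 0.27, SE 0.32, edgeR adjusted p = 0.736). For Klf4 the log2 fold change was 0.06 with library sizes that had no TMM factors, a scaling under which the median of all tested genes was -0.22.

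Klf5 (ENSMUSG00000005148.9, chromosome 14, 99536127 to 99552472, plus strand) had 147 and 263 CPM in DMSO and 192 and 186 CPM in NEDD8i. Both NEDD8i libraries lay between the DMSO libraries. A fold of 0.921 was fitted (95% interval 0.533 to 1.59, edgeR adjusted p = 0.906), and the log2 fold change was 0.38 in the fit that left out DMSO replicate 2 and -0.49 in the one that left out DMSO replicate 1. Of the 6 basal markers, Krt5, Krt14, Itga6 and Itgb4 were, like Klf5, lowest in DMSO replicate 1, while Krt15 and Col17a1 were not. Krt5 had 624 and 1627 CPM in DMSO and 969 and 986 CPM in NEDD8i, Krt14 had 1040 and 2314 CPM against 2559 and 2163 CPM, and Krt15 had 815 and 904 CPM against 619 and 552 CPM. The part of basal cell content in the Klf5 values was not tested.

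Gata3 (ENSMUSG00000015619.11, chromosome 2, 9861889 to 9883411, minus strand) is a zinc finger factor needed for barrier lipid synthesis and for the inner root sheath. It had 4212 and 4160 counts in DMSO and 3560 and 3417 counts in NEDD8i, from larger NEDD8i libraries. In CPM these were 602 and 753 in DMSO and 442 and 411 in NEDD8i. Gata3 was the factor lower in both NEDD8i libraries than in both DMSO libraries, the nearest pair differing by 1.36 times. The mean was 678 ± 107 CPM in DMSO and 426 ± 22.3 CPM in NEDD8i (SD, n = 2 each). Its fitted fold was 0.629 (95% interval 0.386 to 1.03, log2 fold change -0.67 with SE 0.31 and, by edgeR, adjusted p = 0.333). The log2 fold change ran from -0.87 to -0.48 over the 12 alternatives, with adjusted p from 0.0586 to 0.901. The 11 hair genes summed to 6513 and 18.8 CPM in DMSO and 16.0 and 426 CPM in NEDD8i, and the T cell markers were highest in DMSO replicate 2, at 47.5 CPM. The part of hair RNA and of T cells in the Gata3 values was not tested. Agpat5, an acyltransferase described as a Gata3 target in mouse epidermis, had 52.2 and 35.1 CPM in DMSO and 19.2 and 27.6 CPM in NEDD8i, lower in both NEDD8i libraries and not past the threshold (edgeR log2 fold change -0.90, SE 0.33, adjusted p = 0.226), except without DMSO replicate 2 (log2 fold change -1.13, edgeR adjusted p = 0.00847, the lowest of 12 alternatives, the highest being 0.895).

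**Figure D2:**
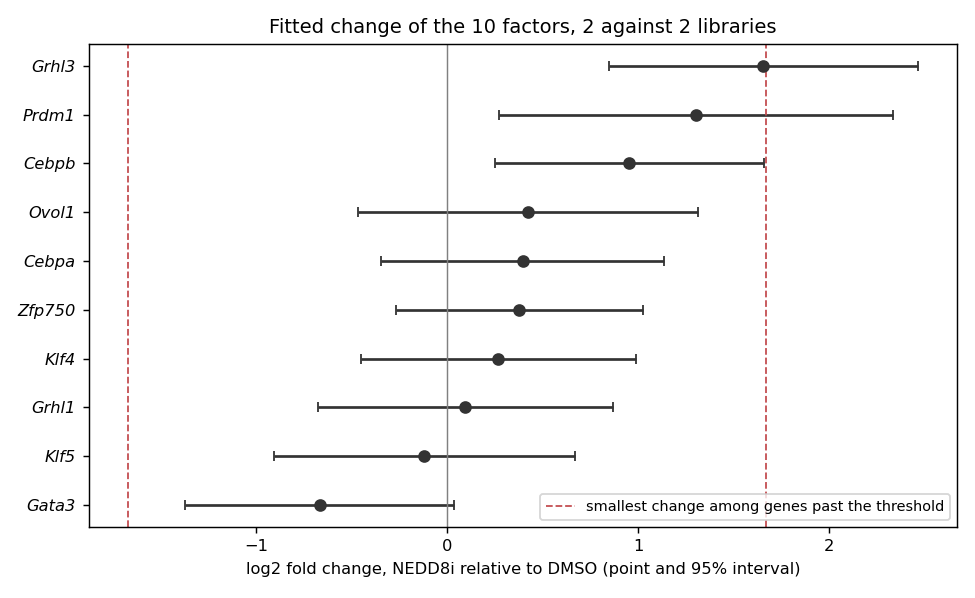
Fitted log2 fold change of each factor, NEDD8i relative to DMSO, as a point with its 95% interval, from 2 libraries against 2. The intervals of Grhl3, Prdm1 and Cebpb lie above 0 before adjustment over all genes, and the dashed lines mark 1.67 in either direction, the smallest change among the 89 genes that passed.

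Promoter sequences are shown for the 4 factors with the smallest p, Grhl3, Cebpb, Prdm1 and Gata3, because these carry the largest differences above. Each runs from 250 bases before to 50 bases after the start of the gene, 5′ to 3′ on the gene's strand, from RefSeq on GRCm38.p6, a build other than that of the counted coordinates. They lie at chr4:135573583-135573882 (minus strand), chr2:167688665-167688964 (plus strand), chr10:44458699-44458998 (minus strand) and chr2:9878551-9878850 (minus strand). Capitals mark matches, on either strand, to TGANTCA for AP-1, AACCGGT for grainyhead-like factors, CACACCC for Krüppel-like factors, GATAA for GATA factors, GAAAGTG for Prdm1 and TATAAA for the TATA box, motifs that did not overlap each other here. No letters are in capitals where no motif matched.
Grhl3: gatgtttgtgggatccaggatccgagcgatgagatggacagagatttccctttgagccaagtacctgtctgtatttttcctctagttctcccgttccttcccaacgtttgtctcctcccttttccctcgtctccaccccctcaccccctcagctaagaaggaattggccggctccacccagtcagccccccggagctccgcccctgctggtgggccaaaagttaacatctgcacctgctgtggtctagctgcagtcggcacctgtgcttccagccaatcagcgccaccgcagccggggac
Cebpb: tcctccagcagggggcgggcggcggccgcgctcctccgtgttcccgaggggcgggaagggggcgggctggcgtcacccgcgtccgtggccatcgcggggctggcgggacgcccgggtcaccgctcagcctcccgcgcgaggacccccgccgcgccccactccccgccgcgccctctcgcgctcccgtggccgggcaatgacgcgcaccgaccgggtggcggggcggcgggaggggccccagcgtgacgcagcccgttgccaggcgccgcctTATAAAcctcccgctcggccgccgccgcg
Prdm1: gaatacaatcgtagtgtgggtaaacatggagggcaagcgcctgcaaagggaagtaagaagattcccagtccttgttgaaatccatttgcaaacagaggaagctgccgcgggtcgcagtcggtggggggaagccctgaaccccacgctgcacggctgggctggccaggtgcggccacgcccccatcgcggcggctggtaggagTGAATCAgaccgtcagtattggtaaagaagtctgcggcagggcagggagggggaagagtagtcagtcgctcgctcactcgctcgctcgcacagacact
Gata3: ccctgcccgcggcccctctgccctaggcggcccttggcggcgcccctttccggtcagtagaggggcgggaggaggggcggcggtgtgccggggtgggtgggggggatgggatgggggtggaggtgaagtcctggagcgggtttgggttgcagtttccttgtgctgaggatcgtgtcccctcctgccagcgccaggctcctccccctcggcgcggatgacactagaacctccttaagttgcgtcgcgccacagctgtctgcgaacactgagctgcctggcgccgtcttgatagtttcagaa

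The letters TGANTCA, searched for AP-1 with any base allowed at N, stand in the Prdm1 window as TGAATCA, beginning 48 bases before the start. With any base at N they stand in 7.79% of 32544 promoter windows of the same length. The TATA letters stand in the Cebpb window, beginning 22 bases after the annotated start, and in 13.6% of all windows. The grainyhead-like, Krüppel-like, GATA and Prdm1 letters were in none of these 4 windows, and were in 1.02%, 7.98%, 25.3% and 4.84% of all windows in that order. RefSeq windows were matched for 7 of the 10 factors, Klf5, Ovol1 and Zfp750 not being among them. A match is a description of letters and not of a bound site.

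The relatives of these factors did not pass either. Of 29 genes of the Klf, Grhl, Ovol, C/EBP, Prdm and Gata families outside the 10, 22 were tested and 0 passed, with a median log2 fold change of 0.04 (13 positive, 9 negative). The 4 with the highest mean level, Klf6, Klf3, Klf9 and Grhl2, had log2 fold changes of 0.41, 0.36, -0.52 and -0.59. Klf6, an early-response factor, had 441 and 252 CPM in DMSO and 388 and 531 CPM in NEDD8i, so its groups overlapped. Cebpd, an acute-phase C/EBP factor named after its values were seen, had 14.9 and 2.90 CPM in DMSO and 9.93 and 10.1 CPM in NEDD8i, the same pattern as Ovol1, with the NEDD8i libraries alike and the DMSO libraries apart, and like Ovol1 it was called higher without DMSO replicate 1 (log2 fold change 1.77) and turned negative without DMSO replicate 2 (-0.55).

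Among 57 other regulators of epidermal differentiation, 1 rose and 0 fell. The riser was Ehf, an epithelial ETS factor active in differentiating keratinocytes. Ehf had 105 and 126 counts in DMSO and 799 and 1218 counts in NEDD8i, which were 15.01 and 22.8 CPM against 99.2 and 146 CPM. Every NEDD8i library was far above every DMSO library. The edgeR fit gave 2.70 on the log2 scale (SE 0.36, adjusted p = 0.0162), Ehf passed in all 12 alternatives, and over them the log2 fold change ran from 2.38 to 3.05. The median over the 57 was -0.31, with 26 positive and 31 negative. The 4 with the highest level, Sox9, Rora, Bcl11b and Maf, had log2 fold changes of 0.35, -0.62, -0.66 and -0.57, none past the threshold. Without DMSO replicate 1 Rora and Bcl11b were called lower (log2 fold changes -1.05 and -0.98).

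**Figure D3:**
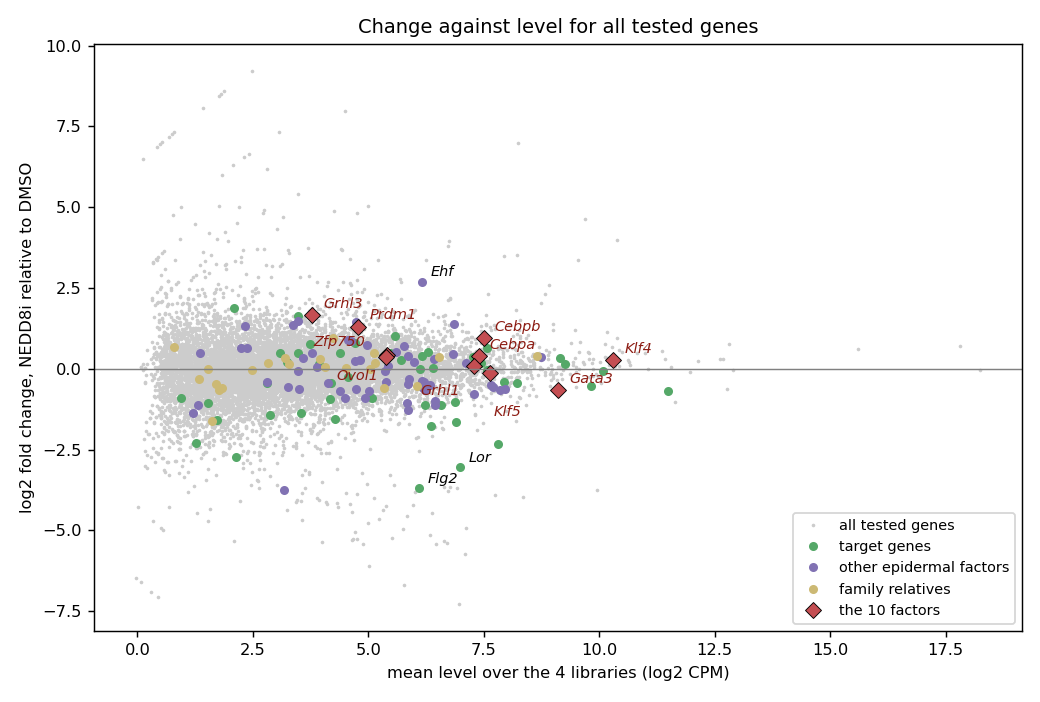
Log2 fold change against mean level in log2 CPM for all 11388 tested genes (grey), the 10 factors (red diamonds), their family relatives, other epidermal factors and target genes. The 10 factors lie within the cloud of all genes. The labelled list genes that passed are Ehf at 2.70, Lor at -3.05 and Flg2 at -3.69. Some hair genes that did not pass lie lower at similar levels, such as Krt33a at -5.38.

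Of 51 differentiation and barrier genes that these factors are known to act on or to accompany, 48 were tested, 0 rose and 2 fell, Lor and Flg2, with a median log2 fold change of -0.33. Lor, loricrin, the main cornified envelope protein, had 340 and 111 CPM in DMSO and 24.7 and 29.7 CPM in NEDD8i (edgeR log2 fold change -3.05, SE 0.51, adjusted p = 0.0377). Flg2, filaggrin 2, had 160.5 and 90.9 CPM in DMSO and 6.58 and 12.9 CPM in NEDD8i (edgeR log2 fold change -3.69, SE 0.44, adjusted p = 0.0128). Both were lower in both NEDD8i libraries. Flg2 passed in all 12 alternatives. Lor missed the threshold in 5 of them, among which were the fits without NEDD8i replicate 1 (log2 fold change -2.90, edgeR adjusted p = 0.252) and without NEDD8i replicate 2 (-3.20, edgeR adjusted p = 0.166), and its adjusted p over the 12 ran from 7.46e-23 to 0.252. Without DMSO replicate 1 the log2 fold change of Lor was -2.04, and without DMSO replicate 2 it was -3.62, both past the threshold.

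Targets tied to single factors gave mixed values. Tgm1, the transglutaminase that cross-links the cornified envelope and a Grhl3 target in mouse, had 10.9 and 5.98 CPM in DMSO and 10.2 and 9.37 CPM in NEDD8i, overlapping between groups (edgeR log2 fold change 0.21, SE 0.42, adjusted p = 0.858). Arhgef19, a Grhl3 target in wound closure that activates RhoA, had 29 and 17 counts in DMSO and 3 and 9 in NEDD8i, lower where Grhl3 was higher, and did not pass (edgeR log2 fold change -2.29, SE 0.74, adjusted p = 0.176). Dsg1a, a desmoglein under Grhl1, had 251 and 428 CPM in DMSO and 214 and 290 CPM in NEDD8i, and its copy Dsg1b had 45.3 and 77.2 CPM against 82.6 and 79.7 CPM, neither past the threshold. Dsg1a and Dsg1b are near-identical and may share reads in counting. The spinous keratins Krt10 and Krt1, known to follow C/EBP factors, had log2 fold changes of -0.68 and -0.53, and neither passed. Krt1 had 341 and 1800 CPM in DMSO and 930 and 552 CPM in NEDD8i, so its direction turned with the DMSO library kept. It was called lower without DMSO replicate 1 (log2 fold change -1.29, edgeR adjusted p = 0.000935) and higher without DMSO replicate 2 (1.14, edgeR adjusted p = 0.032), and over the 12 alternatives its adjusted p ran from 0.000935 to 0.986. Krt10 was called lower without DMSO replicate 1 alone (-0.995, edgeR adjusted p = 0.0215, the lowest of its 12 alternatives, the highest being 0.912).

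In a list of 14 genes around Ovol1 and the aryl hydrocarbon receptor, a ligand-activated factor that acts upstream of OVOL1 in human keratinocytes, 13 were tested, 0 passed and the median log2 fold change was 0.33. Flg (filaggrin) and Tiparp, a feedback enzyme of the receptor, had the highest mean levels. Flg had 242 and 503 CPM in DMSO and 53.3 and 93.6 CPM in NEDD8i (edgeR log2 fold change -2.34, SE 0.45, adjusted p = 0.0548). It was called lower in 6 of the 12 alternatives (no filter, DESeq2, both blocks and without either DMSO library), with adjusted p from 4.66e-17 to 0.425 and a log2 fold change from -2.82 to -1.70. Tiparp had 59.9 and 52.0 CPM in DMSO and 129.9 and 122 CPM in NEDD8i (edgeR log2 fold change 1.17, SE 0.28, adjusted p = 0.0958), and was called higher in 5 alternatives (no filter, DESeq2, the replicate block and without either DMSO library), with adjusted p from 0.00398 to 0.675. Myc, which Ovol1 represses in mouse, had 10.4 and 12.1 CPM in DMSO and 12.5 and 19.0 CPM in NEDD8i, with no call (edgeR adjusted p = 0.567).

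**Figure D4:**
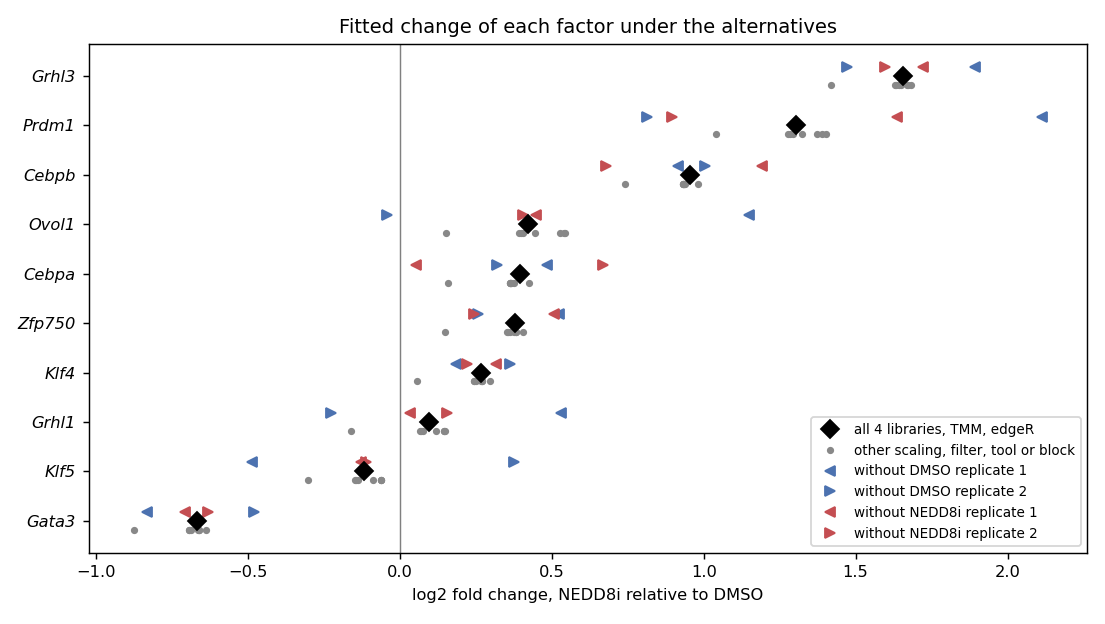
Log2 fold change of each factor in the fit of all 4 libraries (black diamonds), in fits without 1 library (triangles) and under other scalings, filters, tools and blocks (grey points). The DMSO mean lies between its libraries, so the fits without DMSO replicate 1 and without DMSO replicate 2 fall on opposite sides of the full fit by design. In that order they lie at 2.11 and 0.81 for Prdm1, 1.15 and -0.04 for Ovol1, and 1.89 and 1.47 for Grhl3.

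**Figure D5:**
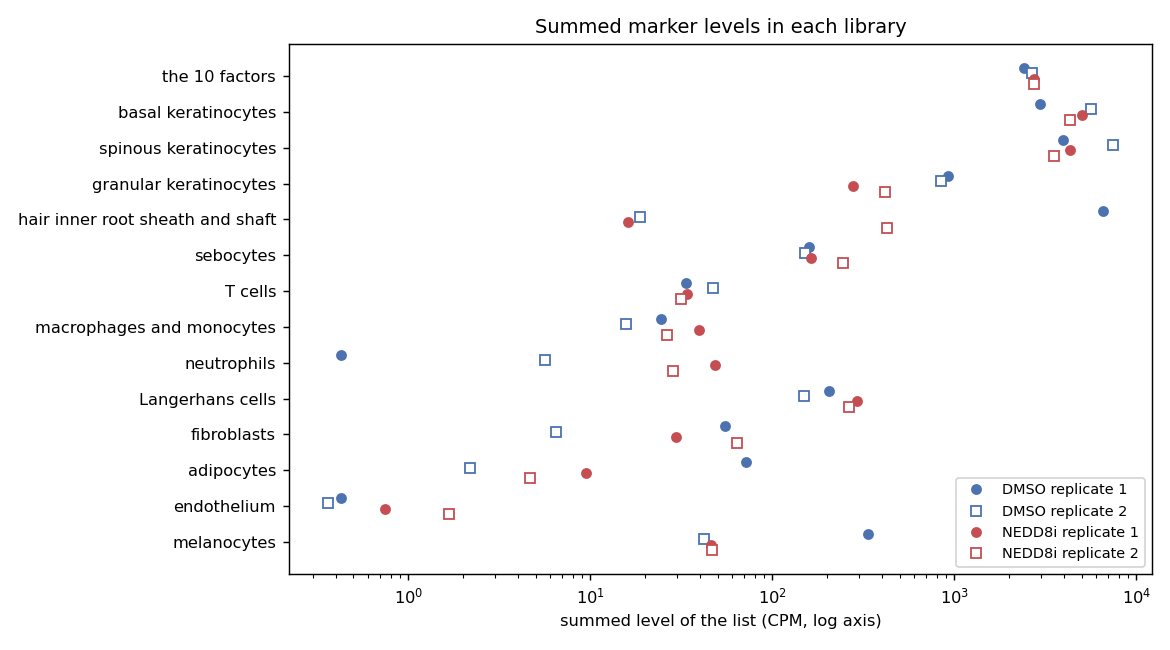
Summed level of the 10 factors and of each marker list in each library, in CPM on a log axis. The 10 factors sum to 2422 and 2661 CPM in DMSO and to 2724 and 2754 CPM in NEDD8i. Hair genes reach 6513 CPM in DMSO replicate 1 and 16.0 CPM in NEDD8i replicate 1.

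The levels of the cell type lists around these factors were as follows. Basal markers summed to 2967 and 5627 CPM in DMSO and 5009 and 4289 CPM in NEDD8i, with 0 of 6 called, and 0 of the 11 hair genes were called. Spinous markers summed to 3934 and 7452 CPM in DMSO and 4327 and 3542 CPM in NEDD8i, with 0 of 5 called. Granular markers summed to 928 and 846 CPM in DMSO and 278 and 416 CPM in NEDD8i, where Lor and Flg2, counted among the target genes too, fell among 5. The lower sum was carried by Lor, Flg and Flg2. Ivl (involucrin), of the same list, went the other way, with 159.5 and 135 CPM in DMSO and 187 and 273 CPM in NEDD8i (edgeR log2 fold change 0.64, adjusted p = 0.366), and Tgm3 overlapped between the groups. Langerhans cell markers summed to 206 and 149 CPM against 294 and 265 CPM with 0 of 4 called. Fibroblast markers summed to 54.7 and 6.52 CPM against 29.6 and 64.2 CPM with 0 of 4 tested called. Of the 383 counts in DMSO replicate 1, 345 were Dcn. Col1a1, Col1a2 and Col3a1 were higher in both NEDD8i libraries, with log2 fold changes of 2.11, 2.35 and 3.10. Their counts were low in DMSO, at 15 and 10, 14 and 14, and 7 and 2 in that order. In NEDD8i they were 24 and 119, 53 and 138, and 19 and 83, each higher in replicate 2. Adipocyte markers summed to 72.03 and 2.17 CPM against 9.44 and 4.69 CPM with 0 of 2 tested called. Neutrophil markers summed to 0.429 and 5.61 CPM in DMSO and 48.4 and 28.5 CPM in NEDD8i, nearly all from S100a9, which keratinocytes also express, while Camp, Ltf, Ly6g and Ngp were at 0 in all 4 libraries. Melanocyte markers were highest in DMSO replicate 1, at 337 CPM against 42.4 to 46.5 CPM in the other 3. The part of these cell types in the values of the factors was not tested.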

How the data were processed

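Total RNA of the skin was made into QuantSeq FWD libraries, which read the 3′ end of transcripts, per the labels' protocols. The authors deposited raw read counts per gene for 4 libraries, with exon coordinates. The submitters' processing notes name STAR, featureCounts, DESeq2, GRCm38 and GRCm39. They give no versions. Only 2.70% of 52029 genes shared with GENCODE M21 (GRCm38) begin at the same base there, so coordinates are taken as GRCm39. The exon length, an other kind of column per the file headers, entered no value. There were 0 unused sample columns.

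Counts were fitted in R 4.3.3 with edgeR 4.0.16 (TMM, filterByExpr with minimum count 10 and total 15, robust quasi-likelihood F test, group alone). Adjusted p-values cover all 11388 tested genes. Fold changes are NEDD8i relative to DMSO, with 95% intervals from the standard error and degrees of freedom of the test. The biological coefficient of variation was 34.6% and the median SE was 0.42 (log2). No library was a duplicate of another (chi-square per degree of freedom 24.4 to 69.6).

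The factors and gene lists were chosen with earlier results of these data known. All 10 factors are named, with up to 4 called genes of each list or, if it had no call, its 2 genes of the highest level. For relatives and other factors the 4 of the highest level are named too. Alternatives were DESeq2 1.42.0, limma-voom (limma 3.58.1), RLE factors, no TMM, no filter, no ribosomal RNA genes, a replicate block and each library left out. A crossed block was chosen after seeing the data. Scripts were tested on simulated counts.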

Additional observations from a re-analysis of the deposited data

How the results depend on the processing

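Across 120 refits of the 10 factors (12 alternatives each), 105 kept direction and side of the threshold, 11 passed it where the full fit did not, and 4 reversed. The reversals were Klf5, Ovol1 and Grhl1 without DMSO replicate 2, and Grhl1 with library sizes without TMM (-0.16). In fits without 1 library the log2 fold change ran from -0.49 to 0.38 for Klf5, from -0.042 to 1.15 for Ovol1 and from -0.23 to 0.53 for Grhl1. Under that scaling the median of all genes was -0.22, so Grhl1 relative to it stayed above.

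Factors higher past the threshold, 0 in the full fit, numbered 2 with no filter (Grhl3 and Prdm1), 1 with DESeq2 (Grhl3), 1 with the replicate block (Grhl3), and 0 to 4 in fits without 1 library, the 4 being Grhl3, Cebpb, Prdm1 and Ovol1 without DMSO replicate 1. Factors lower were 0 in every fit. Among all genes, 76 higher and 13 lower in the full fit became 38 higher with library sizes without TMM, 385 and 318 with no filter, 227 and 165 with DESeq2, 25 and 2 with limma-voom, 179 and 106 with the replicate block, and 41 to 692 and 3 to 712 in fits without 1 library. Related factors and target genes, 1 higher and 2 lower, became 8 and 11 with no filter, 3 and 12 with DESeq2, 4 and 6 with the replicate block, and 1 to 14 and 1 to 23 in fits without 1 library; lower was also 1 with library sizes without TMM and with limma-voom. The causes were not tested. For the 30 other named genes, 310 of 360 refits kept direction and side of the threshold, 37 passed it where the full fit did not, 5 lost it (all Lor) and 8 reversed. Reversals with library sizes without TMM were Cebpd (-0.14) and Tgm1 (-0.046). In fits without 1 library the range crossed 0 for Cebpd (-0.55 to 1.77), Tgm1 (-0.13 to 0.70), Dsg1a (-0.77 to 0.028), Id3 (-1.85 to 1.03), Krt1 (-1.29 to 1.14) and Sox9 (-0.21 to 0.76).

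The labels do not tie replicate numbers to a shared animal or day. Deviations of same-numbered libraries from their group means correlated at -0.13 across genes, so a crossed replicate block was added. With 2 libraries a group, crossed libraries correlate at 0.13 by construction, so the value does not show that they share an animal or day. The crossed block called 248 genes higher and 235 lower, 2 factors higher, and 5 and 8 related genes. With 2 libraries a group, the median SE of the 10 log2 fold changes was 0.33. A floor of 3 counts was 0.36 to 0.543 CPM.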

Other observations

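Of the 57 other regulators, 15 had both NEDD8i libraries above both DMSO libraries and 20 had both below, where 25.0% and 22.9% of all tested genes did. The genes named here were chosen after their values were seen. Tfap2b, an AP-2 factor, had 70.3 and 92.0 CPM in DMSO and 31.7 and 35.4 CPM in NEDD8i, lower in both NEDD8i libraries (edgeR log2 fold change -1.27, SE 0.29, adjusted p = 0.0866), and was called lower in 5 of 12 alternatives, with adjusted p from 0.000165 to 0.697. Its relative Tfap2c, a factor of early epidermal commitment, had 43.3 and 39.7 CPM in DMSO and 64.0 and 71.6 CPM in NEDD8i, higher in both and not past the threshold (edgeR adjusted p = 0.244). Zeb1, a repressor of epithelial genes that stromal cells also express, had 18 and 19 counts in DMSO and 83 and 72 counts in NEDD8i (edgeR log2 fold change 1.66, adjusted p = 0.12). Its relative Zeb2 had 12 and 3 counts in DMSO and 45 and 60 counts in NEDD8i (edgeR log2 fold change 2.44, adjusted p = 0.114). Zeb1 was called higher in 2 of the 12 alternatives and Zeb2 in 4. Col1a1, Col1a2 and Col3a1, markers of fibroblasts, were also higher in both NEDD8i libraries (log2 fold changes 2.11, 2.35 and 3.10, 0 called). They rested on low counts in DMSO and differed between the NEDD8i replicates, with 24 and 119, 53 and 138, and 19 and 83 counts in that order. The part of stromal and immune cells in the Zeb1 and Zeb2 counts was not tested.

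Dlx3, a homeobox factor of the hair and epidermis, had 213 counts in DMSO replicate 1 and 12, 4 and 16 counts in the other 3 libraries. Id3, an inhibitor of basic helix-loop-helix factors, had 135 CPM in DMSO replicate 1 and 18.1 to 38.2 CPM elsewhere. Both were highest in the library with the most hair RNA, and neither passed in the full fit (edgeR adjusted p = 0.382 and 0.707). Without DMSO replicate 2 both were called lower (log2 fold changes -4.61 and -1.85), and without DMSO replicate 1 those changes were -0.84 and 1.03.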
